A study of Brassica napus with 6 samples.

Results

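Runs of neighbouring genes that differed the same way between a bnsdp1 mutant and the wild type (WT) of oilseed rape were described along the 19 chromosomes. A gene was kept if its mean over the 6 libraries was at least 1 CPM (counts per 1000000 counts of a library). Runs were selected on the ratio of mutant to WT levels. A run was 3 or more consecutive kept genes, in order of start, whose ratio of mean CPM was at least 2 in all of them (a rising run) or at most 0.5 in all of them (a falling run). An offset of 0.1 CPM was added to both means of each ratio. Of 43212 kept genes on the chromosomes, 3008 lay in 5 stretches that were left out, namely A01 from 0 to 15 Mb, A05 from 13 to 26 Mb, A07 from 26 to 32 Mb, A09 from 27 to 39 Mb and C06 from 44 to 52 Mb. The other 40204 genes held 149 runs, 68 rising and 81 falling, with 485 genes of the 7875 that passed the ratio. Rising and falling name the direction used to choose the runs. The mutant to WT differences of their genes are therefore a description, and no test of them is given.

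The samples were cotyledons of Brassica napus, an allotetraploid whose chromosomes form an A and a C subgenome. Seedlings of WT and of the line bnsdp1#CR88, 3 libraries each, were kept dark for 4 days on a medium holding 1% sucrose and then under normal conditions for 6 h, and RNA with poly(A) tails was sequenced. The libraries held 48288744 to 65550668 counts over 100919 genes. The labels name 1 mutant line and do not say whether the replicates came from separate seedlings, so any p-value reflects the spread of these 6 libraries alone, and that spread may be technical. The gene identifiers are not paired with gene names in the files, so neither the level of SDP1 nor markers of the tissue could be checked. In bulk tissue, fewer cells of a type and less RNA per cell cannot be told apart.

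SDP1 (sugar-dependent 1) is known from Arabidopsis as the lipase that starts the breakdown of stored seed oil in germinating seedlings. Neighbouring genes in plants can be alike in expression because they are tandem duplicates, which tend to keep one strand and a like length, because they share a promoter region or a stretch of chromatin, or because they form a biosynthetic gene cluster whose members differ in sequence. In an allotetraploid, most stretches of one subgenome also have a counterpart of like gene order in the other.

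Most runs were as short as the rule allows. Among the rising runs 47 had 3 genes, 15 had 4, 4 had 5 and 2 had 6, for 233 genes in all. Among the falling runs 72 had 3 genes and 9 had 4, for 252 genes in all, and none was longer. Of all 40204 genes searched, 8.25% were at least 2-fold higher and 11.3% at least 2-fold lower in the mutant. The remaining 7390 genes past the ratio lay in no run. All 485 run genes had 3 mutant values on one side of all 3 WT values, against 32.4% and 34.0% of the genes searched, and all were called by edgeR's quasi-likelihood test, against 25.5% and 26.2% of the genes tested. Nothing is read from these counts, since the ratio chose the genes. They were as high in genes past the ratio outside runs, where 99.3% of 3084 higher and 99.6% of 4306 lower genes did not overlap between the genotypes.

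Next neighbours past the ratio were more often alike than the shares over all genes. The kept gene after a higher gene was also higher in 463 of 3315 cases, or 14.0%, and was lower in 9.65%. After a lower gene the next was lower in 643 of 4556 cases, or 14.1%, and higher in 6.50%. Of 40158 triplets of consecutive kept genes, 414 had all 3 genes past the ratio. Of these, 97 were higher throughout, 90 were lower throughout and 227, or 54.8%, mixed directions. Of all genes past the ratio 42.1% were higher, so triplets taken without regard to position would mostly mix directions. How large that share would be was not computed, so the 54.8% alone shows neither an excess nor a lack of mixing. By pairs, a next gene of opposite direction was less frequent than over all pairs. The shares were 9.65% against 11.3% after a higher gene and 6.50% against 8.25% after a lower one. Neighbouring genes can share a promoter region or reads, so these shares carry no test.

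The runs were spread over all 19 chromosomes, from 1 on A01 to 14 on A09, and made up a like share of both subgenomes. The A subgenome held 28 rising and 38 falling runs with 1.18% of its 18478 kept genes, and the C subgenome held 40 rising and 43 falling runs with 1.23% of 21726. By chromosome the share of kept genes in runs went from 0.486% on A01 to 1.67% on C07. Runs of opposite direction stood near each other as often as runs of the same direction. Of 32 cases in which the next run on a chromosome lay within 1 Mb, 15 had the same direction and 17 the opposite one. The closest pair was on C03, where the rising runs at 3279196 to 3293950 and at 3304718 to 3314693 were 10.8 kb apart with 2 kept genes between them. On C05 a falling run starting at 46041435 ended 24.99 kb before a rising one starting at 46077866, with no kept gene between. Only the rising runs on A07 at 32176420 and on C06 at 52296255 lay within 1 Mb of a left-out stretch.

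The runs were compact, with a median of 20.1 kb from the first start to the last end (middle 50% of runs 12.7 to 44.2 kb). The shortest was a falling run of 3 genes on C07 at 57326737, of 2.53 kb, and the longest a falling run of 4 genes on C04 at 33505856, of 320.5 kb. In 74 runs every neighbour was at most 10 kb away, and in 53 no gene below the level of 1 CPM lay inside. Of the 7 runs over 100 kb, 6 were falling. One run, on A05 at 44416483, held genes with overlapping spans, whose reads cannot be assigned to one of them with certainty. The mean log2 ratio of a run had a median of 2.03 in the rising runs (1.02 to 7.22) and of -1.88 in the falling runs (-3.97 to -1.14). In 6 rising and 8 falling runs every gene was at least 4-fold different.

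**Figure D1:**
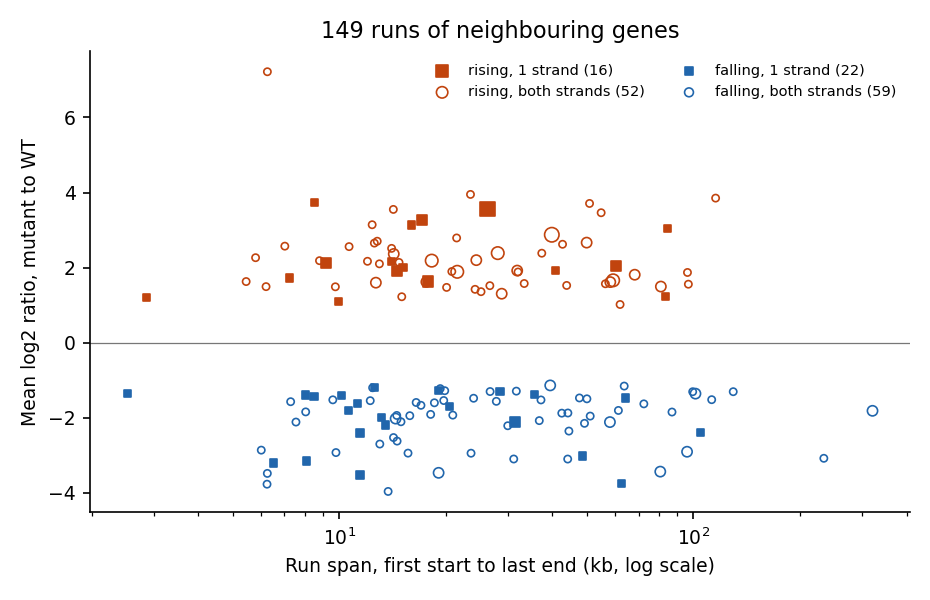
Each point is one of the 149 runs, placed by its span in kb (log scale) and by the mean log2 ratio of mutant to WT over its genes, with larger markers for runs of more genes. Filled squares are the 16 rising and 22 falling runs whose genes all lie on 1 strand. Spans from 2.53 to 320.5 kb occur, the rising run at 7.22 stands well above the others, and the runs on 1 strand span at most 104.9 kb with mean log2 ratios from -3.75 to 3.74.

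Strand and length took no part in choosing the runs. Over all pairs in runs both were alike somewhat more often than elsewhere, by less than the counting error. For strand the gap was larger in pairs with no other annotated gene between them. Of the 336 neighbouring pairs in runs, 187 lay on the same strand, or 55.7% (exact 95% interval 50.2 to 61.0%), against 50.3% of 39845 neighbouring pairs outside runs. The share was 55.8% in rising and 55.6% in falling runs. It was 51.3% when only genes of at least 5 CPM were kept, and 59.9% with neighbours at most 20 kb apart. No share outside runs was computed under these settings. In pairs with no other annotated gene between them it was 59.9% of 207 in runs (52.9 to 66.6%) and 50.0% of 21101 outside. The 770 pairs that passed the ratio alike without being part of a run had 57.5%, no lower than the 55.7% in runs. The 616 pairs that passed it in opposite directions had 48.4%. Gene spans, introns included, were within 1.5 times of each other in 118 pairs, or 35.1% (30.0 to 40.5%), against 30.8% outside runs. The intervals over all pairs, for strand and for length, hold the shares outside runs. In pairs with no other annotated gene between them, spans were alike in 34.3% in runs and in 31.4% outside. Both likenesses held in 66 pairs, or 19.6% against 15.6%, and in 22.7% against 15.7% of pairs with no other annotated gene between them. These intervals cover the counting of pairs and treat pairs of one run as independent, which they are not.

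Whole runs showed less likeness than single pairs. All genes lay on 1 strand in 38 of 149 runs, 16 rising and 22 falling. Among the 119 runs of 3 genes the share was 26.1%, against 25.98% of 39971 triplets outside runs. The longest gene of a run of 3 was at most 1.5 times the shortest in 12 runs, or 10.1%, against 8.51% of those triplets. This share was 17.0% in rising runs and 5.56% in falling runs. One strand and like length together, the layout of an even tandem array, occurred in 1.68% of the runs of 3 and in 2.30% of the triplets outside. The 1.68% stands for 2 runs, both rising (4.26% of 47), which are too few to compare these shares.

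Neighbours within runs also stood closer together. The median distance from the end of one gene to the start of the next was 4617 bp in runs and 6080 bp in other pairs, and 68.2% against 60.8% were at most 10 kb apart. This share was 72.1% in rising runs, 64.3% in falling runs and 60.0% in pairs that passed the ratio alike outside runs. Pairs with no other annotated gene between them made up 61.6% in runs and 53.0% outside. A run of 3 spanned a median of 18.6 kb, against 26.1 kb for triplets outside runs. The genes themselves were short, with a median span of 1447 bp in rising and 1681 bp in falling runs, against 1977 bp in all genes searched. Genes past the ratio in no run had medians of 1697 bp where higher and 1869.5 bp where lower.

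**Figure D2:**
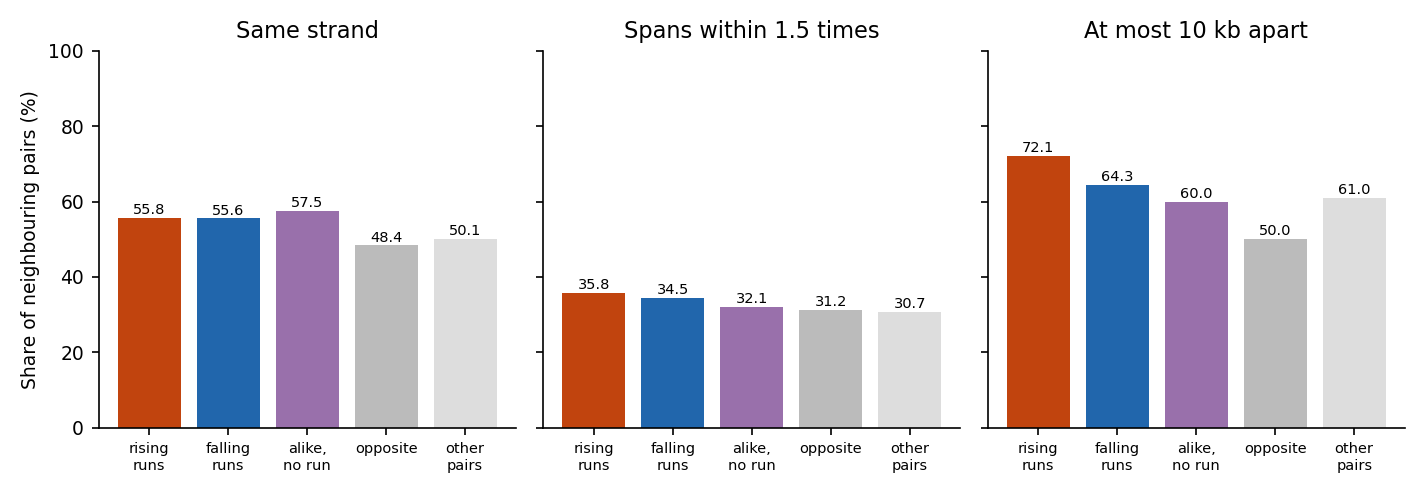
Bars give the percentage of neighbouring pairs of kept genes on the same strand, with spans within 1.5 times of each other, and at most 10 kb apart, for pairs in rising runs, in falling runs, pairs past the ratio alike in no run, pairs past it in opposite directions, and all other pairs. Same-strand shares are 55.8, 55.6 and 57.5% in the 3 groups that differed alike and 48.4 and 50.1% in the other 2, and rising runs have the highest share of close pairs at 72.1%.

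The longest rising run with the largest mean difference held 6 genes in 26.2 kb of chromosome A10 (20461990 to 20488191), all on the minus strand and with no low gene between them. Its mean log2 ratio was 3.56. The first gene, BnaA10G0175100ZS, had 49.0, 43.95 and 41.5 CPM in WT and 348, 314 and 349.7 CPM in the mutant, a 7.51-fold higher mean. The last, BnaA10G0175600ZS, had 0.634, 0.458 and 0.311 CPM in WT and 33.2, 27.9 and 18.3 CPM in the mutant, a 46.9-fold higher mean. Between them the ratios were 5.14, 14.2, 11.3 and 9.33. No gene of this run overlapped between the genotypes.

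The 6 genes of this run differed widely in length and in level. Spans ran from 1280 to 7271 bp. The fourth gene had the highest level per length, 65.4 CPM per kb over all libraries, and the second the lowest, 0.667 CPM per kb. The fourth gene had 15.1, 14.0 and 11.3 CPM in WT and 149, 150.2 and 162 CPM in the mutant. The third gene had 4.10, 4.67 and 3.75 CPM in WT and 59.3, 63.1 and 59.4 CPM in the mutant. WT replicate 3 had the lowest value of the 3 WT libraries in each of the 6 genes. No library of the mutant was highest throughout.

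The longest falling run of largest mean difference held 4 genes in 19.1 kb of chromosome C08 (49144007 to 49163088), the first on the minus strand and the others on the plus strand. The third gene, BnaC08G0458300ZS, had 13.7, 12.2 and 17.7 CPM in WT and 0.249, 0.182 and 0.184 CPM in the mutant, a 48.0-fold lower mean. The fourth, BnaC08G0458400ZS, had 8.68, 6.85 and 8.01 CPM in WT and 0.249, 0.382 and 0.313 CPM in the mutant, a 19.2-fold lower mean. These low mutant values rest on 10 to 21 reads per library. The first gene had 8.40, 7.44 and 8.35 CPM in WT and 1.76, 2.02 and 1.49 CPM in the mutant, and the second had 10.3, 9.96 and 10.9 CPM in WT and 3.44, 2.24 and 2.43 CPM in the mutant. The mean log2 ratio of the run was -3.47, and the difference was much larger in the last pair of genes than in the first.

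**Figure D3:**
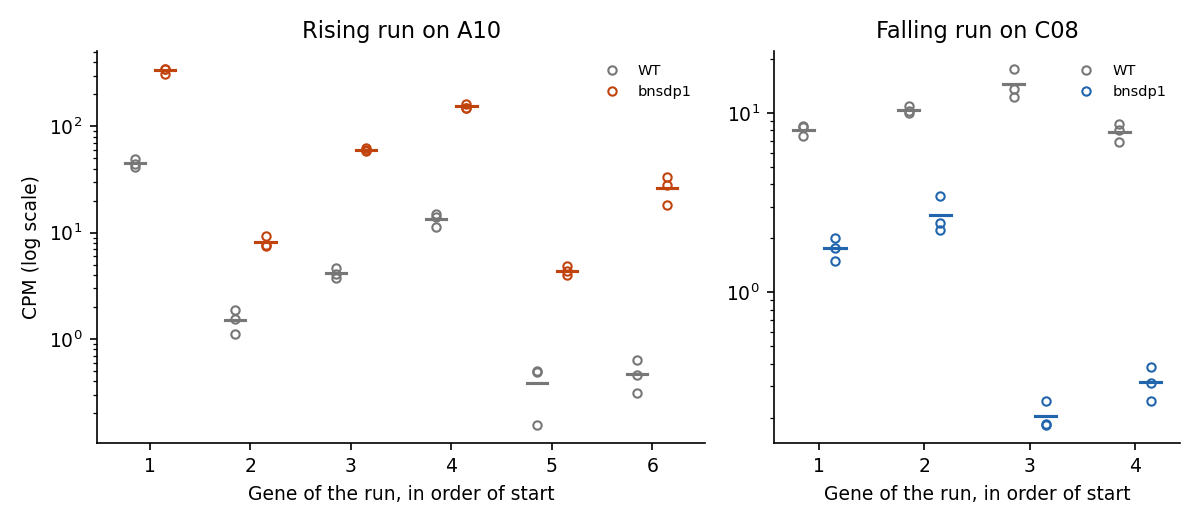
CPM (log scale) of each gene in the rising run of 6 genes on A10 and the falling run of 4 genes on C08, in order of start. Open circles are the 3 WT and 3 bnsdp1 libraries and bars their means; in each of the 10 genes the genotypes do not overlap, with ratios from 5.14 to 46.9 on A10 and a 3.74-fold to 48.0-fold lower mean on C08.

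The second rising run of 6 genes was on A06 (7350184 to 7390019) and its genes differed unevenly. The first 3 lay on the minus strand, the next 2 on the plus strand and the last on the minus strand. The second gene had 7.87, 8.79 and 9.65 CPM in WT and 69.7, 59.6 and 61.6 CPM in the mutant, and the third had 4.14, 4.41 and 5.33 CPM in WT and 41.5, 35.7 and 36.6 CPM in the mutant. Their annotated spans are 55 bases apart on 1 strand, so reads of the one could have been counted to the other. The first gene, at 1.57, 1.68 and 1.09 CPM in WT and 3.06, 3.20 and 2.80 CPM in the mutant, was just inside the rule with a ratio of 2.02. The fourth gene had 2 reads in WT replicate 1 and none in the other WT libraries, and 3.13, 2.62 and 1.82 CPM in the mutant. The last gene, 20.2 kb from the fifth, was 6.04-fold higher, at 2.64, 2.01 and 1.65 CPM in WT and 10.1, 14.9 and 14.6 CPM in the mutant.

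The other 4 runs of 5 genes were all rising and all used both strands. On A08 (20732504 to 20760534) strands alternated, and the second gene went from 4.31, 2.79 and 4.71 CPM in WT to 107, 99.8 and 107 CPM in the mutant, 25.9-fold higher, while the third was 2.19-fold higher with mutant values of 18.8, 28.9 and 40.4 CPM. On A10 (23592960 to 23611207) the first gene was 16.7-fold higher and the other 4 were 2.21-fold to 6.96-fold higher. Its last gene, a 655 bp span, had 12.4, 14.7 and 15.02 CPM in WT and 42.5, 42.0 and 43.3 CPM in the mutant, so its mutant spread was small (SD 0.680 CPM). On C03 (35744497 to 35766037) the fifth gene, with a span of 225 bp, was 7.73-fold higher, at 11.95, 11.6 and 10.5 CPM in WT and 107, 76.5 and 81.3 CPM in the mutant. On C07 (53287282 to 53346635) the third gene was 5.39-fold higher and the other 4 were 2.28-fold to 3.66-fold higher. The ratios thus differed between the genes of each of these runs.

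Among runs of 3 or 4 genes, 17 rising runs had every gene at 5 CPM or more, and the 6 with the largest mean log2 ratio are described. The largest difference of any run was on C01 (1284585 to 1290852), with a mean log2 ratio of 7.22 over 3 genes in 6.27 kb. That mean depended on the offset, and was 6.38 with 0.5 CPM and 5.86 with 1 CPM. The first gene had 2.31, 1.63 and 2.31 CPM in WT and 331, 363 and 353 CPM in the mutant, 159.9-fold higher. The second had 1.44, 0.885 and 0.895 CPM in WT and 189.9, 201 and 188 CPM in the mutant, 164-fold higher. The third, on the other strand, had 4, 2 and 2 reads in WT and 24.7, 14.3 and 16.1 CPM in the mutant, 126-fold higher with the offset. All 3 genes were thus at 2.31 CPM or lower in every WT library. Whether they differed by a like factor cannot be told, since the third ratio rests on few WT reads and on the offset. The edgeR log2 fold changes were 7.44, 7.53 and 8.61. The spans of the first pair are 28 bases apart on the plus strand, so reads may have been counted across them.

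The run on C08 at 36638805 took most of its mean log2 ratio of 3.95 from one gene. Its second gene had 0.334, 0 and 0.428 CPM in WT, from 19, 0 and 22 reads, and 299, 221 and 246 CPM in the mutant. The ratio with the offset was 721. The neighbours on either side were 2.19-fold and 2.33-fold higher, at 7.99, 7.25 and 8.17 CPM in WT against 16.9, 16.2 and 18.6 CPM for the first gene. With a spread of 8.36 log2 units between its genes, this run was the least even of all 149.

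The rising run on A05 (42917625 to 42926129) lay on the plus strand throughout. Its first and second genes were 4.83-fold and 4.82-fold higher, the second at 46.7, 50.8 and 39.3 CPM in WT and 251, 205 and 205 CPM in the mutant. The third gene was 102-fold higher, at 0.493, 0.305 and 0.467 CPM in WT and 63.1, 52.7 and 43.4 CPM in the mutant. On C08 at 36318371 the first gene was also 4.83-fold higher, from 43.7, 44.1 and 42.6 CPM to 222, 202 and 207 CPM, and the third 22.5-fold higher. On C01 at 19353409 the first gene was 24.3-fold and the second 41.8-fold higher, the first at 12.99, 15.4 and 16.2 CPM in WT and 362, 316 and 413 CPM in the mutant. That run covers 115.6 kb, so its genes are neighbours only in the sense that no kept gene lies between them. On C06 at 52296255 the 3 genes were 29.8-fold, 4.33-fold and 10.4-fold higher.

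Only 10 falling runs had every gene at 5 CPM or more, and again the 6 with the largest mean log2 ratio are given. On A09 (16607310 to 16613333) the first and second genes, both on the minus strand and 98 bases apart, were 13.1-fold and 13.5-fold lower. Reads of the one could have been counted to the other. The first had 14.2, 12.8 and 13.6 CPM in WT and 0.497, 1.56 and 0.754 CPM in the mutant. The third gene, on the plus strand, was abundant at 1383, 1333 and 1268 CPM in WT and 534, 695 and 598 CPM in the mutant, 2.18-fold lower. With 622 CPM per kb over all libraries it had the highest level per length of the genes described here.

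On A02 (3162799 to 3175818) the genes were 4.42-fold, 2.85-fold and 21.9-fold lower. The third had 33.8, 27.9 and 29.7 CPM in WT and 0.849, 1.51 and 1.53 CPM in the mutant. On C08 (31810968 to 31855488) the 3 genes were 2.09-fold, 4.05-fold and 15.9-fold lower, and the last went from 25.1, 27.1 and 45.2 CPM in WT to 2.03, 1.96 and 1.84 CPM in the mutant. WT replicate 3 stood apart from the other WT libraries in that gene, but no WT value came near the mutant ones. On C03 at 13107619 the middle gene was 4.77-fold lower, at 106, 112 and 134 CPM in WT and 18.6, 25.96 and 29.0 CPM in the mutant, with neighbours 2.31-fold and 2.40-fold lower.

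The falling runs on A03 at 11976277 and on C05 at 3179520 both began with a gene of 312 bp on the plus strand. On A03 that gene had 40.6, 43.3 and 36.5 CPM in WT and 3.40, 6.15 and 5.52 CPM in the mutant, 7.85-fold lower. On C05 it had 29.0, 30.7 and 24.2 CPM in WT and 2.98, 5.84 and 6.14 CPM in the mutant, 5.51-fold lower. In both, mutant replicate 1 was the lowest library. The genes after them did not match in length, at 468 and 849 bp on A03 and at 630 and 1640 bp on C05. Whether the 312 bp genes are copies of one another was not tested, since their sequences were not compared.

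Just 13 runs had genes of like length throughout, the longest span at most 1.5 times the shortest, and 3 of these also lay on 1 strand. On A09 (13347220 to 13378512) 4 genes of 1695 to 2380 bp on the minus strand were 3.16-fold to 7.25-fold lower, in 31.3 kb. The third gene had 3.03, 1.89 and 5.72 CPM in WT and 0.331, 0.437 and 0.442 CPM in the mutant. The second gene, the one with the highest level per length, had 12.3, 14.1 and 15.5 CPM in WT and 4.06, 4.18 and 4.82 CPM in the mutant. The order of the WT libraries was not shared over the 4 genes, since WT replicate 1 was highest in the first and replicate 3 in the others.

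The other pair of even runs on 1 strand were rising. On C09 at 66343533, 3 genes of 501 to 739 bp on the minus strand were 4.53-fold, 5.06-fold and 2.82-fold higher. The first had 3.12, 3.11 and 3.03 CPM in WT and 15.6, 13.2 and 14.2 CPM in the mutant. On C05 at 4029041, 3 genes of 1121 to 1583 bp on the plus strand were 4.40-fold, 2.93-fold and 4.19-fold higher, the last at 10.5, 10.4 and 11.01 CPM in WT and 54.5, 43.6 and 36.5 CPM in the mutant. In that run mutant replicate 1 was highest in all 3 genes. Reads of near-identical copies can be counted to the wrong member, and whether these genes are alike in sequence was not tested.

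A search for runs on the A and C subgenomes with 3 consecutive genes of the same or mirrored order and strand and spans within 10% of each other, added after the values had been seen, found 3 matches among 2754 pairs of runs of the same direction and none among 2724 pairs of opposite direction. Within a subgenome it found none among 2764 pairs of the same direction and 1 among 2784 of opposite direction. All 3 matches were falling. The closest was a run on A04 (25244605 to 25250858) with one on C04 (70669393 to 70675658), whose spans were 1119, 604 and 1877 bp on A04 and 1092, 597 and 1886 bp on C04.

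In these runs the second gene had close WT values on both chromosomes, but its few mutant reads differed. The second gene had 4.61, 5.80 and 12.4 CPM in WT on A04 and 6.09, 6.27 and 12.7 CPM on C04. In the mutant it had 0, 2 and 2 reads on A04 and 16, 19 and 4 reads on C04. WT replicate 3 thus stood above the other WT libraries on both chromosomes. The log2 ratios in order were -1.23, -5.95 and -4.14 on A04 and -1.53, -4.60 and -4.33 on C04.

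The run on A10 at 25351215 matched one on C09 at 66393156, with spans of 987, 690 and 2042 bp and of 1044, 690 and 2085 bp. The second gene, 690 bp in both, had 17.6, 11.3 and 5.23 CPM in WT on A10 and 14.5, 8.74 and 3.05 CPM on C09, and at most 10 reads in any mutant library. Here WT replicate 1 was the highest and replicate 3 the lowest on both chromosomes, the reverse of the order in the second genes on A04 and C04. Log2 ratios were -1.95, -5.62 and -1.22 on A10 and -1.53, -5.54 and -1.76 on C09. A pair of runs of 4 genes, on A02 at 9205784 and on C02 at 17046742, matched with 3 genes on the plus strand followed by one on the minus strand. The first 3 spans were 762, 3229 and 3191 bp on A02 and 788, 2987 and 2944 bp on C02, while the last, of 767 and 897 bp, differed by more than the limit. Their log2 ratios were -1.01, -1.24, -1.05 and -1.27 on A02 and -2.06, -1.09, -1.21 and -1.08 on C02. Some of these runs depended on single libraries: a gene of the A02 run missed the ratio without WT replicate 1 or mutant replicate 2, one of the C02 run without WT replicate 1, WT replicate 3 or mutant replicate 1, and one of the A10 run without mutant replicate 2.

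The rising runs nearest to left-out stretches matched in length but not in strand. Spans were 3296, 2149 and 1249 bp on A07 at 32176420 and 3309, 2143 and 1223 bp on C06 at 52296255, and the third gene lay on opposite strands. Log2 ratios were 4.10, 2.34 and 1.09 on A07 and 4.90, 2.11 and 3.37 on C06. The first gene had 2.11, 1.46 and 2.02 CPM in WT and 36.7, 34.3 and 30.2 CPM in the mutant on A07, and 5.14, 4.06 and 4.12 CPM in WT and 148, 148 and 109 CPM in the mutant on C06. Whether any of these matched genes are counterparts of one another was not tested, and if they are near-identical, reads of one could have been counted to the other.

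**Figure D4:**
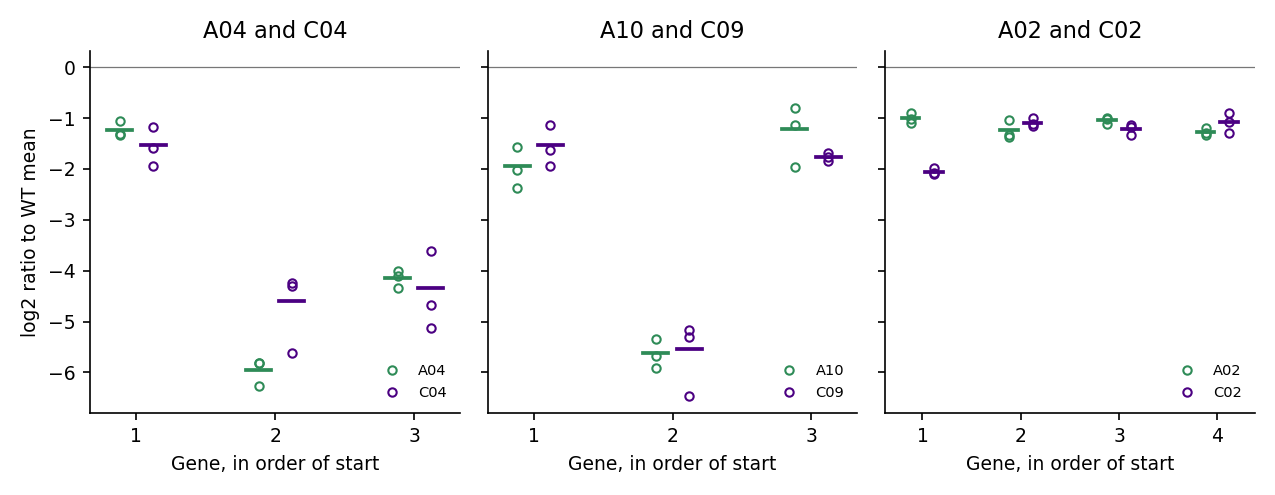
Log2 ratio of each bnsdp1 library to the WT mean, by gene in order of start, for the 3 falling runs on an A chromosome (green) that matched a run on a C chromosome (purple) in strand order and span. Circles are the 3 mutant libraries and bars the log2 ratio of the group means; the log2 ratio of the second gene, between -4.60 and -5.95, is the lowest in both members of the first pair and of the second, while the A02 and C02 genes lie between -1.01 and -2.06.

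Genes below 1 CPM that lay inside a run took no part in the rule. Their share in the run's direction was above that elsewhere, by less than the counting error in rising and in falling runs taken separately. Inside the rising runs 42 of 98 low genes had at least 10 reads over the 6 libraries, and 24 of the 42 were higher in the mutant. This is 57.1% (exact 95% interval 41.0 to 72.3%), against 41.6% of 18805 low genes elsewhere, so the interval holds the share elsewhere. Their median log2 ratio was 0.28, against -0.15 elsewhere. Inside the falling runs 45 of 68 such genes were lower, or 66.2% (53.7 to 77.2%) against 58.4% elsewhere, which this interval also holds, with a median of -0.30. Over both directions together, 69 of 110 such genes, or 62.7%, differed in the direction of their run. The share elsewhere depends on the direction, so no single share was computed to stand beside this one. Past 2-fold, 7 genes inside rising runs were higher (16.7%) and 6 lower (14.3%), and 14 inside falling runs were lower (20.6%) and 3 higher (4.41%). Elsewhere 7.80% of low genes were at least 2-fold higher and 14.6% at least 2-fold lower. None of these low genes overlapped a run gene.

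Beyond the ends of the runs the share of genes past the ratio in the direction of the run was close to that over all genes. The first kept gene beside a run is held below the ratio by the rule. The next pair on either side had a median log2 ratio of 0.05 beside rising runs (272 genes) and of -0.00 beside falling runs (324 genes), against a median of all kept genes at -0.00 with a middle 50% from -0.46 to 0.39. Beside rising runs 8.09% of them were at least 2-fold higher, against 8.25% of all genes, and beside falling runs 10.5% were at least 2-fold lower, against 11.3%. From the fourth to the tenth gene these shares were 8.40% and 11.6%. In the opposite direction, 12.9% of the next pairs beside rising runs were at least 2-fold lower, and 11.4% of those beside falling runs were at least 2-fold higher, against 11.3% and 8.25% of all genes.

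**Figure D5:**
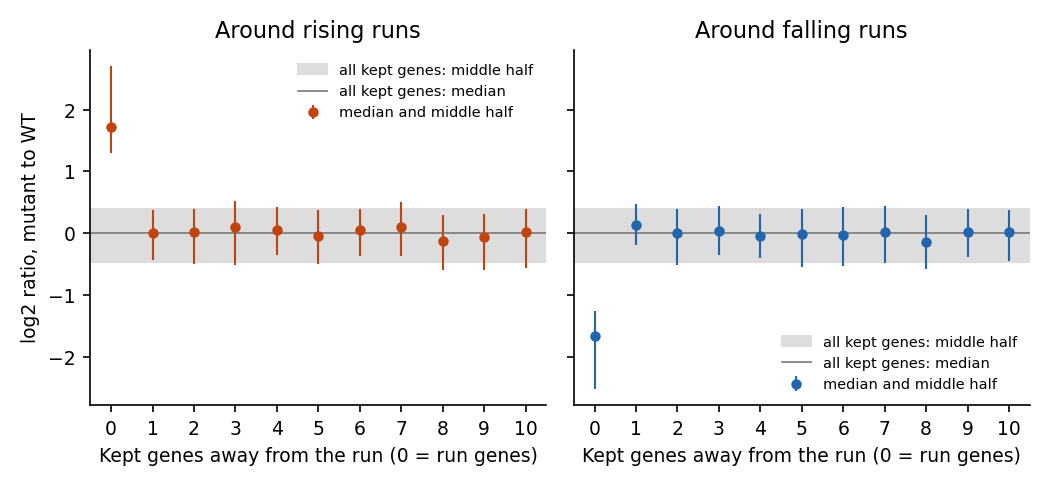
Median log2 ratio (points) and middle 50% (lines) of the kept genes at each distance from a run, counted in kept genes, with 0 for the run genes and a grey band and line for the middle 50% and median of all kept genes. Run genes stand far from the band because the rule put them there, and from the second gene outward the points lie near 0, with 0.05 beside rising and -0.00 beside falling runs for the next pair of genes.

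The difference was of like size in the 3 mutant libraries, and mutant replicate 1 was most often the extreme one. The median shift of a run from the WT mean was 2.19, 1.88 and 1.96 log2 units in mutant replicates 1, 2 and 3 for rising runs, and -2.04, -1.83 and -1.85 for falling runs. Replicate 1 had the largest shift in 51 of 68 rising and in 57 of 81 falling runs. The same was not computed for genes outside runs, so it is not read as a trait of the runs. Among the WT libraries the median shifts lay between -0.05 and 0.00 in rising runs and between -0.10 and 0.10 in falling runs. No run's mutant and WT shifts overlapped, but nothing is read from this, since no single run gene overlapped between the genotypes.

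Replicate order took no part in the rule. Over both directions together it was shared less often by neighbours in runs than by pairs that passed the ratio alike in no run. Neighbours had the same highest WT library in 42.3% of pairs in runs against 39.2% of pairs outside, with 35.2% in rising and 49.1% in falling runs. They had the same highest mutant library in 39.9% against 36.6%, with 46.7% in rising and 33.3% in falling runs. In the 770 pairs that passed the ratio alike in no run these shares were 45.8% in WT and 48.4% in the mutant. The 49.1% of falling runs in WT was above the 45.8%, and the 770 pairs were not split by direction. Between rising and falling runs, the higher share belonged to the genotype in which the run's genes are more abundant. The median coefficient of variation between replicates was 14.2% in WT and 10.7% in the mutant for genes of rising runs, and 12.2% in WT and 18.4% in the mutant for genes of falling runs. All kept genes had medians of 9.71% in WT and 9.33% in the mutant. The larger value was on the side with fewer reads in both directions. Genes past the ratio in no run had closely similar values, 13.7% and 10.8% where higher and 11.9% and 18.2% where lower.

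Rising runs held more abundant genes than falling runs, as did single genes past the ratio. The median level was 7.07 CPM per kb in rising and 2.74 CPM per kb in falling runs, against 3.72 CPM per kb in all kept genes. In single genes past the ratio it was 5.61 CPM per kb where higher and 2.51 CPM per kb where lower. A gene with almost no reads in one genotype was kept only through the other, so levels averaged over both genotypes partly follow from the rule.

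Within most runs the genes did not differ by one common factor. The range of log2 ratios within a run had a median of 1.39, with 1.53 in rising and 1.08 in falling runs, and it was under 0.5 in 28 runs. The most even were a rising run on C07 at 21032952, with a range of 0.02 around a mean of 1.02, and a falling run on C01 at 11969013, with 0.04 around -1.31. The runs just inside the threshold and the triplets just outside it were separated by little. The weakest gene had a ratio of 2.00 in the 3 rising runs nearest the threshold, on A09 at 5314993, C04 at 69694513 and C05 at 14515308, and of 0.499, 0.498 and 0.498 in the falling runs on A05 at 2003390, A02 at 9205784 and C03 at 28103465. The nearest triplets outside had 2.00, 1.99 and 1.99 on C07 at 56534195, C09 at 66903741 and C07 at 55573258, and 0.502, 0.503 and 0.503 on C09 at 8068423, A10 at 21356229 and A04 at 12798004.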

How the data were processed

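The values were whole-number read counts per gene, 1 column per library, which the authors deposited. Per the submitters' processing notes fastp, HISAT2 and featureCounts were used, with versions, settings and genome build not given in the sources used here. Per the file headers each gene has a chromosome, start, end, strand and length. The length equalled end minus start plus 1 in 100% of rows, so it is the whole gene span. Of the counts from 1 to 20, 79.3 to 83.4% per library were even numbers, as arises where both mates of a read pair are counted, so counts are not independent molecules. Strand use in counting is not stated, so overlapping and near-identical genes are uncertain. Genes in the 5 stretches, off the chromosomes or below 1 CPM took no part in the runs.

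CPM was scaled by the column sum of each library. The genome-wide comparison used edgeR 4.0.16 (filterByExpr, TMM, quasi-likelihood F test, Benjamini-Hochberg adjustment, threshold 0.05) in R 4.3.3, with DESeq2 1.42.0 and limma 3.58.1 as alternatives, and was tested on simulated data. Described one by one were runs of 5 or more genes, the 6 rising and 6 falling shorter runs of largest mean log2 ratio with every gene at 5 CPM or more, runs on 1 strand with spans within 1.5 times, and the longest run of each direction, with the identifiers of its genes of highest level and of largest ratio (the next largest where both are 1 gene). Chosen after their values were seen were the matched A and C runs and the runs at the extremes of span or evenness. The runs and lists were chosen with earlier results of these data known. Replicate numbers were not used to pair the libraries in the main comparison. Within a genotype, libraries differed by 7.30 to 16.0 chi-square units per degree of freedom, so none was a copy of another.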

Additional observations from a re-analysis of the deposited data

How the results depend on the processing

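The number of runs depended on the thresholds more than on the scaling. Against the 68 rising and 81 falling runs there were 94 (38 falling) at 2 CPM, 55 (32 rising, 23 falling) at 5 CPM and 226 (138 falling) without a filter on low counts. An offset of 1 CPM gave 84 runs (42 rising, 42 falling), a ratio of 1.5 gave 646 (280 rising, 366 falling) and a ratio of 3 gave 32 (16 rising, 16 falling). With neighbours at most 20 kb apart there were 53 falling runs. TMM scaling and DESeq2 size factors turned the balance to 76 rising and 68 falling, and moved the median log2 ratio of kept genes from -0.00 to 0.04. Leaving out WT replicate 3 also did so, with 81 rising and 63 falling. Leaving out each library in turn gave 136 to 163 runs, 56 to 81 rising and 63 to 99 falling, with 381 to 439 of the 485 genes shared, and 18 to 20 of the 21 runs picked by length, size or evenness kept every gene past the ratio. So did 6 to 8 of the other 8 runs described gene by gene, a check chosen after the data were seen. The mean log2 ratios of the 21 runs were recomputed with other offsets, with TMM and without each library. Of these 189 values, 40 moved by more than 1 SD of the mutant libraries. That 0 changed sign follows from how the runs were chosen, and nothing is read from it.

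Spans were alike in 43.7% of pairs in runs at 5 CPM, in 22.9% under the narrower limit of length likeness and in 54.2% within 2 times, and 55.5% of pairs were at most 10 kb apart and 51.3% on the same strand at 5 CPM. Under TMM the median beside rising runs was 0.090. The edgeR count of genes changed, 29152, became 28376 with the replicate block, and runs by edgeR fold change numbered 161 without and 164 with the replicate block. Deviations of libraries with the same number correlated at 0.16, -0.04 and 0.09, and of those with different numbers at -0.17 to 0.10. With 3 libraries per genotype these values cannot decide whether the numbers pair the libraries. The block changed no count by over 1.5 times. Groups of 3 are too small to screen single libraries for outliers, and reads shared between near-identical copies could not be separated.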
